A study of Rattus norvegicus with 35 samples.

Results

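The circadian clock genes of the rat olfactory epithelium described here were 10 of the 35561 gene names on the array, *Arntl*, *Clock*, *Npas2*, *Per1*, *Per2*, *Per3*, *Cry1*, *Nr1d1*, *Nr1d2* and *Dbp*. They were found on the arrays by their symbols, as the name of a probe or in brackets in its description, and had 12 of the 41012 probes, 3 for *Per3* and 1 for each of the others. Of these 12 probes, 10, standing for 9 genes, were expressed in common by every litter, by adult and by old rats, as were 23668 probes in all. The *Clock* probe was above background on 30 of 35 arrays but on only 2 of the 5 arrays of litter L2, and the third *Per3* probe on 2 of 35 arrays, so both fell outside this set.

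The study compared RNA of the olfactory epithelium between Brown Norway rats of different ages and between individuals of the same age, with 1 Agilent whole rat genome array per sample and Cy3 as the dye. The newborn group held 19 pups aged 3 to 5 days, of unknown sex, from litter L1 (4 pups) and litters L2, L3 and L4 (5 pups each), with 1 array per pup. The 4 adult rats were males of 9 weeks and the 4 old rats males of 22 months, each with 2 arrays, 1 for each nostril, which were averaged. The labels name no treatment. The groups differed in history as well as age, since pups were bought with their mothers while the old rats had lived in the animal house since they were young. The pups came from Charles River, and the study does not say which supplier the adult and old rats came from. In other adult rats, the study reported higher *Per3* and *Dbp* in animals from Charles River than in those from Elevage Janvier. Age and any difference of supplier therefore cannot be told apart here. The hour of dissection is not given in the sources used here, so age or litter and hour cannot be told apart. Sex is known for adult and old rats only.

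The mammalian clock is a feedback loop of transcription. BMAL1, the product of *Arntl*, pairs with CLOCK or with its relative NPAS2 and binds E-box elements, from which the *Per* and *Cry* genes, *Nr1d1*, *Nr1d2* and *Dbp* are transcribed. PER and CRY proteins return to the nucleus to repress that activity, and the nuclear receptors encoded by *Nr1d1* and *Nr1d2* (REV-ERBα and REV-ERBβ) repress *Arntl*, *Npas2* and *Clock* through elements they share with the ROR receptors. *Dbp* encodes a factor that carries the rhythm to further genes through D-box elements, and it usually peaks far from *Arntl* in the daily cycle. Clocks of this kind run in most peripheral tissues, the olfactory system among them.

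The RefSeq promoter windows of 3 members hold letters of these elements, and they are shown because they hold a match to these elements. Of the 10 members, 9 matched an entry (build GRCr8), and the 250 bases before each annotated start were searched on both strands for the E-box CACGTG, the E-box variant CACGTT, the D-boxes TTATGTAA and TTACGTAA, the ROR element cores TAGGTCA and TGGGTCA, and the cAMP response element TGACGTCA. Capitals mark each match, and a match read on the opposite strand is printed as it lies in the window. *Arntl* is listed in RefSeq as *Bmal1*, and *Nr1d1* has an upper and a lower start.
Per2 (chr9:99496994-99497243, minus strand): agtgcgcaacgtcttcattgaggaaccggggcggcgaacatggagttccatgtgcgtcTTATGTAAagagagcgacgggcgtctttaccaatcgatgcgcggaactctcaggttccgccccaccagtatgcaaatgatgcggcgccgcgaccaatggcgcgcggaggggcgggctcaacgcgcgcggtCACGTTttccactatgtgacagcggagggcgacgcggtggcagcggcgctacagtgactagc
Arntl (chr1:176766078-176766327, plus strand): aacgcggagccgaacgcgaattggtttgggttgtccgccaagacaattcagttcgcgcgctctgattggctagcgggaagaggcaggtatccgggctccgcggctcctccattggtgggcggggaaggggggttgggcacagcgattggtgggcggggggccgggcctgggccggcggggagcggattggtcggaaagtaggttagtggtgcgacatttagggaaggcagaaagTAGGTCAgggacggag
Nr1d1, upper start (chr10:84231813-84232062, minus strand): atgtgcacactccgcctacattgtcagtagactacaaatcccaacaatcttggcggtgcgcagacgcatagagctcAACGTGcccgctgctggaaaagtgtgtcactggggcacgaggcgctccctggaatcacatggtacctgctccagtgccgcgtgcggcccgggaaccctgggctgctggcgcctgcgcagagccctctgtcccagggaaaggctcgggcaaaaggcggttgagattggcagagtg
Nr1d1, lower start (chr10:84229455-84229704, minus strand): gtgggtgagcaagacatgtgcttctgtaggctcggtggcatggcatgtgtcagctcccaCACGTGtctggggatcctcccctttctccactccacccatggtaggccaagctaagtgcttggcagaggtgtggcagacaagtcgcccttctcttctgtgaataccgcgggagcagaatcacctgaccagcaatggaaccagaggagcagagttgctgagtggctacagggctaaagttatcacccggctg

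The *Per2* window had an E-box variant 62 to 57 bases before the start and a D-box 192 to 185 bases before it. The *Arntl* window had a ROR element core 16 to 10 bases before the start, the kind of site that NR1D1 and NR1D2 recognise. The upper *Nr1d1* window had an E-box variant 174 to 169 bases before the start and the lower window an E-box 191 to 186 bases before it. Among all 33469 promoters of the table, 5.59% held the E-box, 4.07% the variant, 0.932% a D-box, 5.62% a ROR element core and 1.59% the cAMP response element. The other 7 windows, of *Per1*, *Per3*, *Clock*, *Nr1d2*, *Dbp* and *Npas2*, held none of these letters, which says nothing about sites elsewhere in these genes.

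Levels are given as the log2 of a probe's background-subtracted signal over the median signal of its array, so that a difference of 1 is a 2-fold change. Levels of different probes are not comparable with each other. Arrays had between 24484 and 28361 probes above background. The neuronal markers were at high levels in every rat, with *Omp*, the marker of mature olfactory neurons, at 9.67 to 10.66 in newborn, 11.28 to 11.58 in adult and 12.34 to 12.63 in old rats. *Gap43*, found in growing axons of immature neurons, lay at 7.82 to 9.31, 7.65 to 8.06 and 7.04 to 7.39 in the same order. The basal cell keratin *Krt5* had no matched probe, and *Krt14*, used in its place, was above background on 6 of 35 arrays.

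Most of the transcriptome differed between ages, so the members' counts stand beside those of all probes. Newborn rats were set against adult rats, as the mean of the 4 litters, at an adjusted p under 0.01 (limma, adjusted over the 23668 probes). Of the 9 clock genes tested, 1 was higher and 4 were lower in newborn rats, against 65.9% of all probes called, 39.6% higher and 26.3% lower. Against old rats none was higher and 6 were lower in newborn rats, where 59.5% of all probes were called, 27.7% higher and 31.8% lower. With litter means as the newborn replicates, 5 clock genes were called against adult and 5 against old rats. Over all probes that setting called 13211 and 11057. Between adult and old rats, 3 of the 9 were higher in old rats and none was higher in adult rats, against 47.0% of all probes called, 31.7% higher in old rats and 15.3% higher in adult rats. When a fold of at least 2 was also required, 2, 4 and 1 clock genes remained in the 3 comparisons, where 23.0%, 18.5% and 12.4% of all probes were called. By direction, the 2 genes higher in adult than in newborn rats stood against 9.01% of probes (newborn higher, 14.0%), the 4 higher in old than in newborn rats against 9.02% (newborn higher, 9.46%), and the 1 higher in old than in adult rats against 7.81% (adult higher, 4.60%).

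The median of all tested probes itself shifted by 0.16 for newborn minus adult, −0.04 for newborn minus old and −0.19 for adult minus old, and by no more than 0.05 in size after quantile normalization. Member changes are given as fitted, with the value relative to this median where it matters. The median change of the 9 genes was −0.24, −0.95 and −0.03 in the same order. After quantile normalization limma called 8 of the 9 clock genes in place of 5 for newborn against adult rats, while the calls over all 23668 probes went from 15594 to 15827. The 3 clock genes added were *Arntl*, *Dbp* and *Cry1*, all lower in newborn rats.

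**Figure D1:**
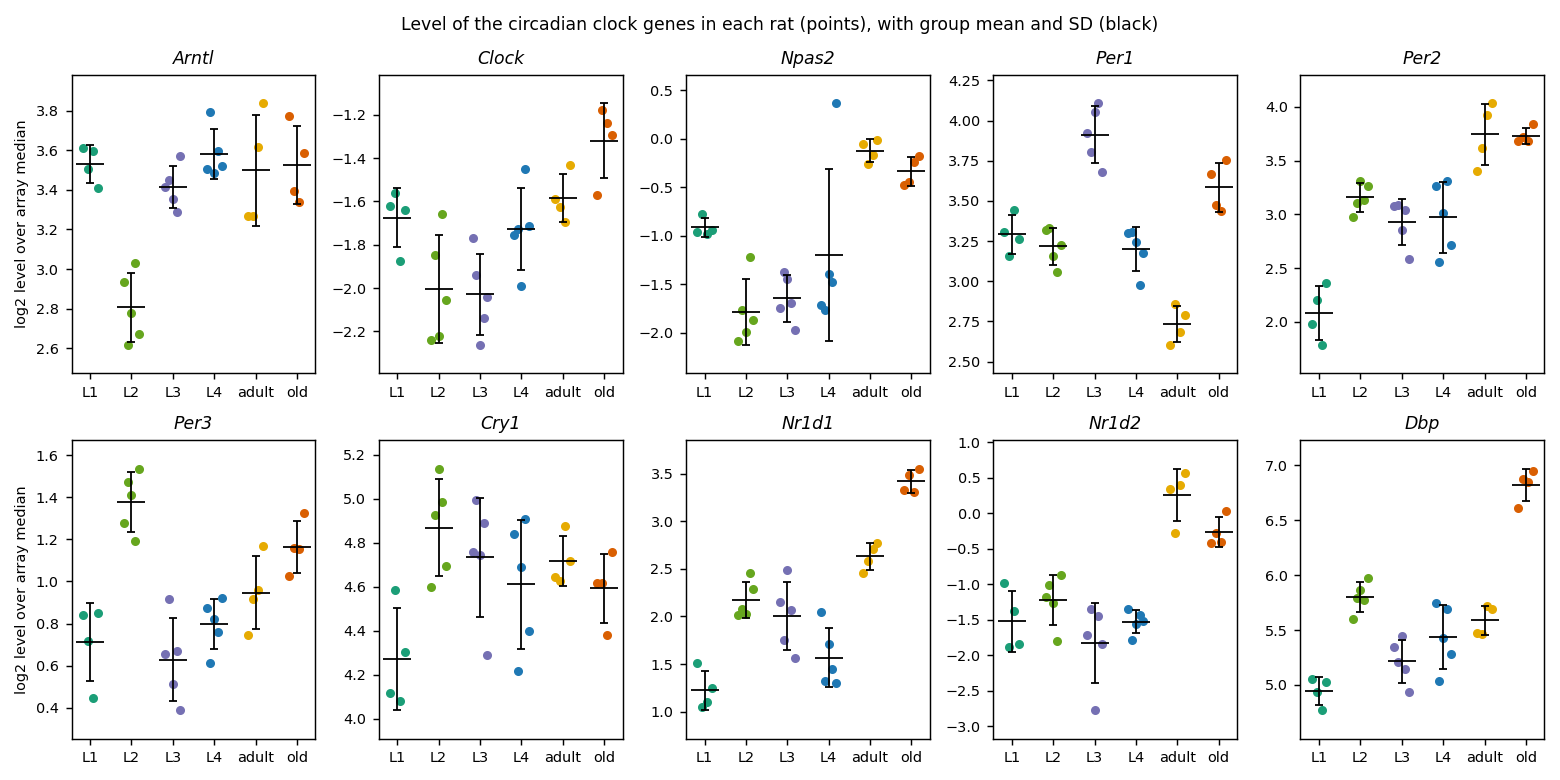
Level of each clock gene (vertical axis, log2 of the signal over the array's median) in every rat, with litters L1 to L4, adult and old rats on the horizontal axis. Points are rats and black bars group means with the SD; old rats lie highest for Dbp and Nr1d1, L2 lies lowest for Arntl, and L1 lies lowest for Per2.

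**Figure D2:**
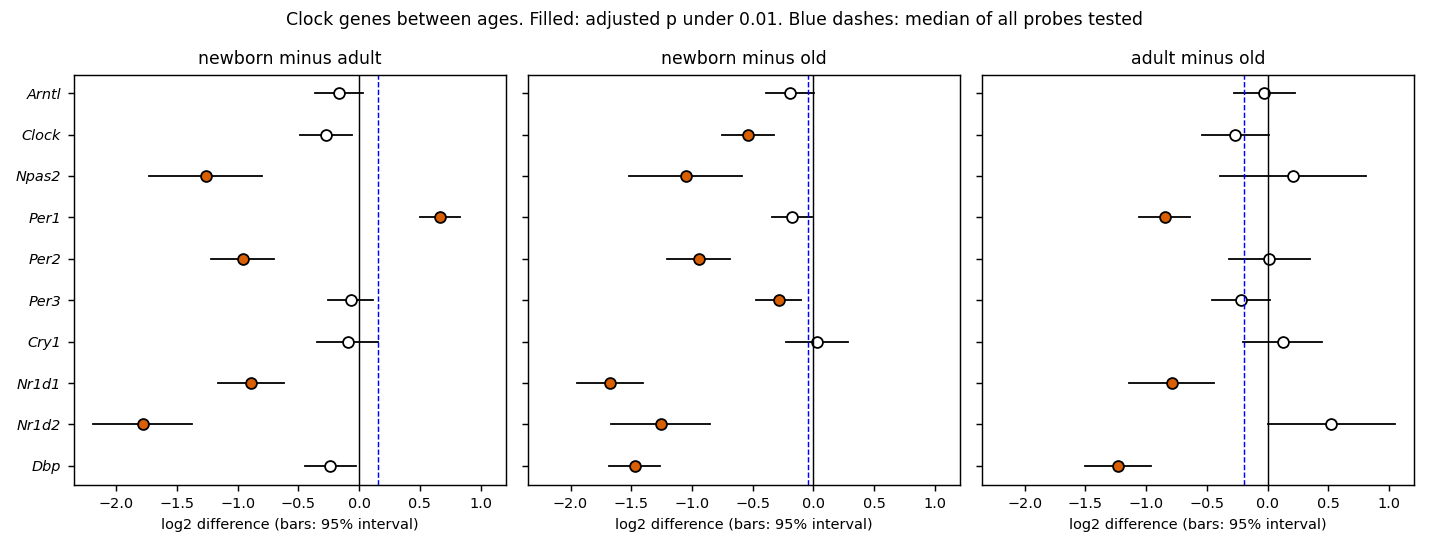
Log2 difference of each clock gene in the 3 age comparisons (horizontal axis), with its 95% confidence interval, filled where the adjusted p was under 0.01 (Clock tested among all probes), and a blue dashed line at the median of all probes tested. Dbp and Nr1d1 were lower in newborn and in adult than in old rats, and Per1 was higher in newborn and in old than in adult rats.

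Among the activators, *Arntl* (probe at rn3 chr1:171281903-171281962, plus strand) encodes the subunit without which the loop does not run. Its level was 3.27, 3.27, 3.62 and 3.84 in the 4 adult rats and 3.77, 3.40, 3.34 and 3.59 in the 4 old rats, and ranged from 2.62 to 3.79 with a median of 3.45 in the 19 pups. The 3 ages overlapped throughout. The differences did not pass the threshold, at −0.16 ± 0.09 (SE, adjusted p = 0.12) for newborn minus adult, −0.19 ± 0.09 (adjusted p = 0.0775) for newborn minus old and −0.03 ± 0.12 (adjusted p = 0.867) for adult minus old rats, with a 95% confidence interval of −0.28 to 0.22 for the last. The newborn minus adult difference was called after quantile normalization, at −0.33 (adjusted p = 0.00306), and with the 75th percentile as scale, at −0.29 (adjusted p = 0.00648). Between adult and old rats it was 0.12 after quantile normalization, opposite in sign and not called.

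*Npas2*, the relative of *Clock* that can replace it as a partner of BMAL1, was lower in newborn rats. The adult levels were −0.05, −0.26, −0.17 and −0.01, the old levels −0.48, −0.44, −0.24 and −0.17, and the pups ranged from −2.08 to 0.37 with a median of −1.48. All pups but 1 lay below every adult and old rat, the exception being rat 35 of L4 at 0.37. The fitted change was −1.26 ± 0.23 (adjusted p = 2.23e-05) against adult rats, a 2.40-fold difference, and −1.05 ± 0.23 (adjusted p = 0.000238) against old rats. Adult and old rats differed by 0.21 ± 0.29 (adjusted p = 0.55). L1 alone against the old rats scanned on the same day gave −0.58, which did not pass the threshold (adjusted p = 0.0892). With normexp background correction and quantile normalization the changes were −0.38 against adult and −0.36 against old rats, both still called.

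*Clock* itself, which encodes the enzyme partner of BMAL1, gave a faint signal. It lay at −1.59, −1.62, −1.70 and −1.43 in adult rats and at −1.57, −1.18, −1.24 and −1.29 in old rats, while the pups ranged from −2.26 to −1.45 with a median of −1.85. Tested among all probes of the array, it was lower in newborn than in old rats, with a difference of −0.54 ± 0.10 (adjusted p = 0.000114), where 43.0% of all probes were called. Newborn minus adult was −0.27 ± 0.10 (adjusted p = 0.0276, with 46.4% of all probes called). Adult minus old was −0.27 ± 0.13 (adjusted p = 0.115, with 31.8% called). The pups and the old rats overlapped, with 17 of 19 pups below every old rat.

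Among the repressors, *Per1* (probe within rn3 chr10:55881463-55882047, plus strand), the *Per* gene most quickly induced by light and hormones, was lowest in adult rats. The adult levels were 2.61, 2.86, 2.69 and 2.79, the old levels 3.66, 3.48, 3.44 and 3.75, and the pups ranged from 2.97 to 4.11 with a median of 3.30. Every pup and every old rat lay above every adult rat, while pups and old rats overlapped. Newborn rats were higher than adult rats by 0.67 ± 0.08 (adjusted p = 5.38e-08), a 1.59-fold difference and 0.51 relative to the median of all probes. Adult rats were also lower than old rats, with a difference of −0.85 ± 0.10 (adjusted p = 2.05e-07). Newborn and old rats differed by −0.18 ± 0.08 (adjusted p = 0.0503). The groups did not overlap for 3 of the 9 genes between newborn and adult rats (*Per1*, *Per2* and *Nr1d2*), against 38.7% of all probes. The same was true of 4 genes between newborn and old rats (*Per2*, *Nr1d1*, *Nr1d2* and *Dbp*), against 31.8%, and of 3 genes between adult and old rats (*Per1*, *Nr1d1* and *Dbp*), against 57.7%.

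*Per2* (probe at rn3 chr9:90850379-90850438, minus strand), whose promoter window with an E-box variant and a D-box is printed above, was lower in newborn rats. The adult levels were 3.41, 3.62, 3.92 and 4.03, the old levels 3.68, 3.72, 3.68 and 3.84, and the pups ranged from 1.79 to 3.31 with a median of 3.02. Every pup lay below every adult and old rat. The change was −0.96 ± 0.13 (adjusted p = 2.51e-07) against adult rats and −0.95 ± 0.13 (adjusted p = 4.28e-07) against old rats. Adult and old rats differed by 0.01 ± 0.16 (adjusted p = 0.95), with a 95% confidence interval of −0.32 to 0.35. L1 was lowest, and without it the changes were −0.72 and −0.71, still called.

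*Per3*, the *Per* gene that mice can lose with the mildest effect on their rhythm, had 3 probes. The brightest (rn3 chr5:168163039-168163098, minus strand) gave 0.74, 0.92, 0.96 and 1.17 in adult rats, 1.02, 1.16, 1.15 and 1.32 in old rats and 0.39 to 1.53 in pups, with a median of 0.84. Newborn minus old was −0.29 ± 0.09 (adjusted p = 0.0069), a call that was lost with the slide as a random block (adjusted p = 0.023), with scan day as one (adjusted p = 0.0337), with litter means as the newborn replicates (adjusted p = 0.126), by the methods' t-test with adjustment (adjusted p = 0.18), from L2 to L4 alone (adjusted p = 0.0287), among all probes (adjusted p = 0.0102) and as the mean over its probes (adjusted p = 0.539). It was also lost without old rat 18, 19 or 20 (adjusted p = 0.0189, 0.0176 and 0.0467). The second probe, which lies next to it, passed the threshold in no age comparison, with differences of 0.08, 0.10 and 0.02. It was above background on 31 of 35 arrays. The third probe, designed on another transcript (rn3 chr5:168194248-168194307), was not well above background on any array of L1, L3, L4 or the old rats, and no fold is given for it.

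*Cry1* (probe at rn3 chr7:20729256-20729315, plus strand), which encodes the strongest repressor of the loop, passed the threshold in no age comparison. Its levels were 4.64, 4.63, 4.88 and 4.72 in adult rats and 4.61, 4.62, 4.38 and 4.75 in old rats, and 4.08 to 5.14 with a median of 4.69 in pups. The 3 ages overlapped. The 95% confidence intervals were −0.35 to 0.16 for newborn minus adult, −0.23 to 0.28 for newborn minus old and −0.20 to 0.45 for adult minus old, and none was called. After quantile normalization newborn minus adult was −0.39 (adjusted p = 0.000958) and adult minus old 0.42 (adjusted p = 0.00599) for *Cry1*, so both calls depend on the scaling.

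*Nr1d1* (probe within rn3 chr10:87557535-87557889, minus strand), the nuclear receptor that represses *Arntl*, had its lowest mean in newborn and its highest in old rats. The adult levels were 2.46, 2.58, 2.71 and 2.77, the old levels 3.33, 3.49, 3.30 and 3.55, and the pups ranged from 1.04 to 2.49 with a median of 1.75. Every old rat lay above every other rat, and 18 of 19 pups lay below every adult rat. The change was −0.89 ± 0.13 (adjusted p = 1.68e-06) for newborn minus adult, −1.68 ± 0.13 (adjusted p = 6.49e-11) for newborn minus old, a 3.20-fold difference, and −0.79 ± 0.17 (adjusted p = 0.000343) for adult minus old. Relative to the median of all probes the last was −0.59.

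*Nr1d2*, its close relative with an overlapping role, was lower in newborn rats but did not follow *Nr1d1* from adult to old rats. The adult levels were 0.34, −0.28, 0.41 and 0.57, the old levels −0.42, −0.27, −0.41 and 0.04, and the pups ranged from −2.77 to −0.87 with a median of −1.44. Every pup lay below every adult and old rat. The change was −1.78 ± 0.20 (adjusted p = 1.54e-08) against adult rats, 3.44-fold, and −1.26 ± 0.20 (adjusted p = 4.8e-06) against old rats. Adult minus old was 0.53 ± 0.25 (adjusted p = 0.0779), with 3 of 4 adult rats above every old rat. With normexp background correction and quantile normalization the latter was called, at 0.37 (adjusted p = 0.000173), while the changes against newborn rats were −0.68 and −0.31, both still called.

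*Dbp* (probe at rn3 chr1:96256131-96256190, plus strand), the output gene, was highest in old rats. The adult levels were 5.48, 5.47, 5.72 and 5.69, the old levels 6.61, 6.87, 6.85 and 6.95, and the pups ranged from 4.77 to 5.97 with a median of 5.34. Every old rat lay above every other rat, while pups and adult rats overlapped. Old rats were higher than newborn rats, with newborn minus old at −1.47 ± 0.10 (adjusted p = 7.75e-12), a 2.77-fold difference. They were also higher than adult rats, with adult minus old at −1.23 ± 0.13 (adjusted p = 3.31e-08), or −1.04 relative to the median of all probes and −0.81 after quantile normalization. Newborn minus adult was −0.24 ± 0.10 (adjusted p = 0.0407), and it was called after quantile normalization, at −0.62 (adjusted p = 5.7e-08).

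The direction of these changes did not run as 1 block. From adult to old rats *Dbp*, *Nr1d1* and *Per1* were higher, the means of *Per2* and *Arntl* differed by at most 0.03, and *Nr1d2* and *Npas2* had lower means without passing the threshold. From newborn to adult rats *Nr1d2*, *Npas2*, *Per2* and *Nr1d1* were higher and *Per1* was lower. Each age enters 2 of the comparisons, which therefore share samples.

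The arrays were scanned on 5 days and 10 slides, with adult rats alone on the first 2 days and under the earlier release of the scanner software, L1 with the old rats on the third day, and L2 to L4 on the last 2 days. Adult rats and scan day therefore cannot be told apart. Within the third day, L1 minus the old rats was −1.87 for *Dbp* (adjusted p = 2.19e-11), −2.19 for *Nr1d1* (adjusted p = 1.12e-10), −1.65 for *Per2* (adjusted p = 6.2e-09) and −1.25 for *Nr1d2* (adjusted p = 0.000167). *Arntl* differed by 0.01 (adjusted p = 0.97) there. *Npas2*, at −0.58 (adjusted p = 0.0892), did not pass the threshold there. L1 had the lowest mean of the 4 litters for *Dbp*, *Nr1d1* and *Per2*, so its difference from old rats in these genes is larger than that of the litter mean by construction.

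The pups of all 4 litters were of 1 strain and aged 3 to 5 days, with no age given per litter, so litter and any difference in age within that range cannot be told apart. No pup of another litter was on the slide or the scan day of the L1 pups. A difference between L1 and the other litters therefore cannot be told apart from slide or scan day. The question was whether pups of a litter resemble each other in these genes. Among litters, 6 of the 9 clock genes passed the moderated F test at an adjusted p under 0.01, *Per1*, *Per2*, *Per3*, *Arntl*, *Nr1d1* and *Dbp*, against 36.4% of all probes. In 4 of them 1 litter lay wholly above or below all other pups, a pattern found in 18.4% of all probes. The outlying litter was L2 for *Arntl* and *Per3*, L3 for *Per1* and L1 for *Per2*.

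*Arntl* was lowest in L2, at 2.94, 2.62, 2.78, 3.03 and 2.67, where the 14 pups of the other litters lay between 3.29 and 3.79. The mean was 2.81 ± 0.17 (SD, n = 5) in L2, against 3.53 ± 0.09 (n = 4) in L1, 3.42 ± 0.11 (n = 5) in L3 and 3.58 ± 0.13 (n = 5) in L4 (F test, adjusted p = 9.04e-06). L2 was also lower than every adult and old rat, while pups of the other 3 litters overlapped with both ages. *Dbp* ran the other way, with L2 highest at 5.60, 5.80, 5.87, 5.77 and 5.97 and L1 lowest at 5.05, 4.94, 4.77 and 5.03. Its mean was 5.80 ± 0.14 (SD, n = 5) in L2 and 4.95 ± 0.13 (n = 4) in L1, with 5.22 ± 0.19 (n = 5) in L3 and 5.44 ± 0.29 (n = 5) in L4 (adjusted p = 3.65e-05), with the L2 and L4 pups overlapping. The order of *Dbp* over all groups was L1, L3, L4, adult, L2 and old, of which only the old rats were clear of every neighbour.

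*Per1* was highest in L3, at 3.92, 3.80, 4.05, 4.11 and 3.68, above the 2.97 to 3.44 of the 14 other pups. Its mean was 3.91 ± 0.18 in L3, against 3.29 ± 0.12, 3.22 ± 0.12 and 3.20 ± 0.14 in L1, L2 and L4 (adjusted p = 1.35e-06). L1, L2 and L4 differed by less than the spread between their pups. *Per2* was lowest in L1, at 1.98, 2.21, 1.79 and 2.36, below the 2.55 to 3.31 of the 15 other pups, and its L2, L3 and L4 pups overlapped (adjusted p = 2.08e-05). The fold between L2 and L1 was 2.10.

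*Per3* was highest in L2, where the brightest probe gave 1.28, 1.47, 1.41, 1.19 and 1.53 against 0.39 to 0.92 in the 14 other pups (adjusted p = 8.14e-06). The second probe also had its highest litter mean in L2, −1.29, without passing the test (adjusted p = 0.0653). Without rat 30 of L3 it passed (adjusted p = 0.00057). *Nr1d1* had its highest mean in L2, 2.17 ± 0.19, and its lowest in L1, 1.23 ± 0.21 (adjusted p = 0.000111), and these litters did not overlap. *Cry1* had the same order of extremes, with 4.87 in L2 and 4.27 in L1, without passing the test (adjusted p = 0.0115), though it passed without rat 10, 21, 30, 32 or 34 (adjusted p from 0.00305 to 0.00823). *Npas2* had the reverse order, with −0.91 in L1 and −1.79 in L2 (adjusted p = 0.0298), and passed the test without rat 35 (adjusted p = 0.000136). *Nr1d2* differed least for its spread (adjusted p = 0.144).

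L2 thus combined the lowest *Arntl* with the highest *Dbp*, *Per3*, *Per2*, *Nr1d1* and *Cry1* means of the 4 litters, while L1 had the lowest *Dbp*, *Per2*, *Nr1d1* and *Cry1* means with *Arntl* near the other litters. Each litter was mostly on 1 slide, but 4 pups were not. These 4 pups were of L2, L3 and L4, so the pairs below say nothing about L1, whose slide and scan day held no other litter. On the tenth slide, the L2 pup and the L3 pup differed by −0.99 for *Per1*, −0.32 for *Arntl*, 0.68 for *Per3* and 0.33 for *Dbp*, against −0.69, −0.61, 0.75 and 0.59 between the litter means. There *Nr1d1* gave −0.03 against 0.17 and *Npas2* 0.22 against −0.14, so that both had the opposite sign to the litter means. On the ninth slide the L3 pup minus the L4 pup was 0.95 for *Per1*, 0.70 for *Nr1d1* and −0.35 for *Dbp*, against 0.71, 0.44 and −0.22 between the means. *Cry1*, at −0.15 against 0.12, and the second *Per3* probe, at −0.08 against 0.23, had the opposite sign there. With the slide as a random block, 6 clock genes were again called among litters while the calls over all probes went from 8610 to 4415.

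The spread between pups of 1 litter differed from gene to gene. *Arntl* and *Per1* were among the steadier probes, with pooled SDs of 0.13 and 0.14 within litters, at the 14.9th and 18.9th percentile of the probes expressed in common, whose median SD was 0.21. *Npas2* and *Nr1d2* were among the more variable, with SDs of 0.51 and 0.40 at the 93.5th and 87.7th percentile. The *Npas2* value rests on rat 35 of L4, without which the SD was 0.24, at the 58.5th percentile. The *Nr1d2* SD was 0.31 without rat 28 of L3, at the 76th percentile. The range of the litter means was in the upper part of all probes for each of the 9 genes, from the 67.5th percentile for *Cry1* to the 91.4th for *Per2*, where the median range was 0.45. *Arntl* and *Per1* thus combined a small spread within litters with ranges of 0.77 and 0.71 between them.

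In adult and old rats the SD between rats of a group was 0.13 to 0.30 for the 9 genes. The nostrils of a rat shared the animal, its hour of death, the slide and the scan day, and were close for *Dbp*, with an SD between nostrils of 0.08 (21st percentile) and a largest difference of 0.24. *Per1* gave 0.09 and 0.18, and *Nr1d1* 0.12 and 0.26. *Arntl* was the gene that varied most between rats of a group for its difference between sides, with SDs of 0.24 and 0.10. Adult rats 15 and 16 gave 3.67 and 3.70 in nostril A and 3.56 and 3.98 in nostril B, and adult rats 13 and 14 gave 3.31 and 3.27 in A and 3.23 and 3.27 in B. Rats 15 and 16 were on the first slide and scan day and rats 13 and 14 on the second, so rat, slide and scan day cannot be told apart in this split.

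**Figure D3:**
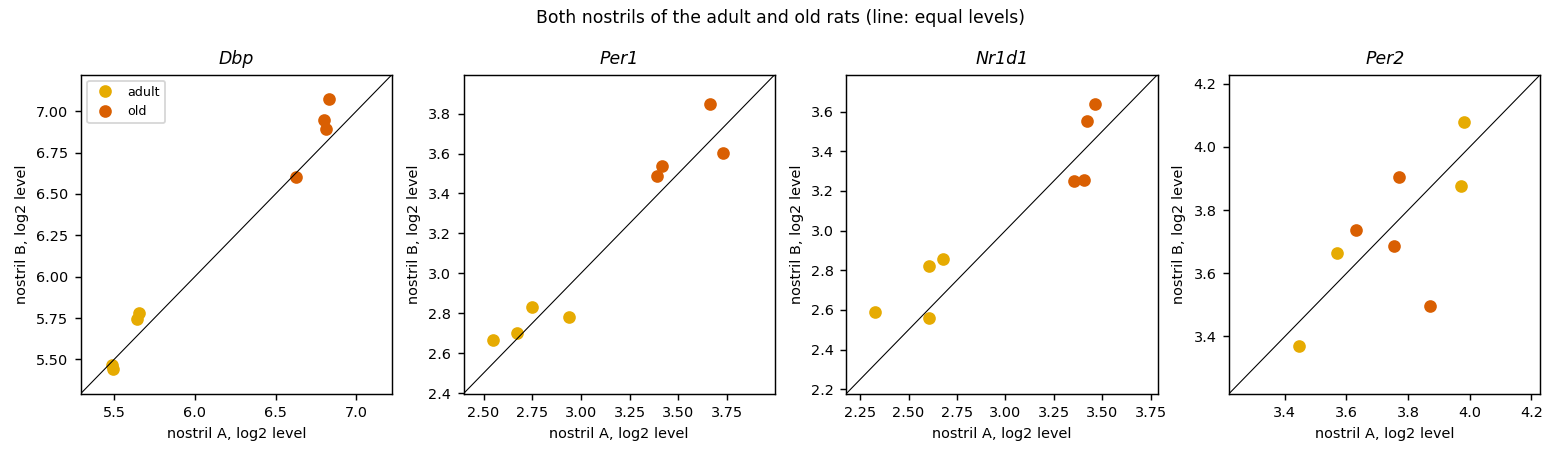
Log2 level in nostril A (horizontal axis) and nostril B (vertical axis) of the 4 adult and the 4 old rats, for 4 clock genes, with a line at equal levels. For Dbp, Per1 and Nr1d1 every old rat lies above every adult rat on both sides, and for Per2 the ages overlap.

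Within groups, several members deviated in the same direction as *Dbp*, as did many other probes. After each group's mean was subtracted, the Pearson correlation with *Dbp* over the 27 rats was 0.79 for *Per2*, 0.69 for *Nr1d1*, 0.62 for *Cry1* and 0.53 for *Per3*, and *Per2* and *Cry1* had 0.78. It was 0.14 for *Nr1d2*, −0.24 for *Arntl*, −0.06 for *Per1* and −0.02 for *Npas2*. Without the 2 rats farthest from the median of *Dbp* the value was 0.72 for *Per2* and 0.62 for *Nr1d1*, and −0.10 for *Arntl*. These correlations are descriptions, since rats share slides and each value shares the median of its array. *Per2* ranked 224th of 23667 probes in likeness to *Dbp*, *Nr1d1* 1682nd, *Cry1* 3645th and *Per3* 6266th, so many other probes followed *Dbp* as closely. *Nr1d2*, with its value of 0.14, ranked 15610th, so most probes had a positive value with *Dbp*.

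The named transcripts most like *Dbp* within groups were *Yipf4* (r = 0.88), *Harpb64* (0.87) and *Plekhf2* (0.86), and the least alike were *Hmgcs1* (−0.77), an enzyme of cholesterol synthesis, and both probes of *Sox18* (−0.71 each), a factor of vessel formation. Over the raw levels of 27 rats, where age contributes, the value was 0.54 for *Yipf4* and 0.88 for *Nr1d1*. Those most like *Arntl* were *Dlgap4* (0.72), *Rcl1* (0.70) and *Mybph* (0.68), and those least like it *Thrb* (−0.73), a thyroid hormone receptor, *Ube1c* (−0.73) and *Rgl1* (−0.70). With *Arntl* the members ranged from −0.24 (*Dbp*) to 0.06 (*Nr1d2*).

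**Figure D4:**
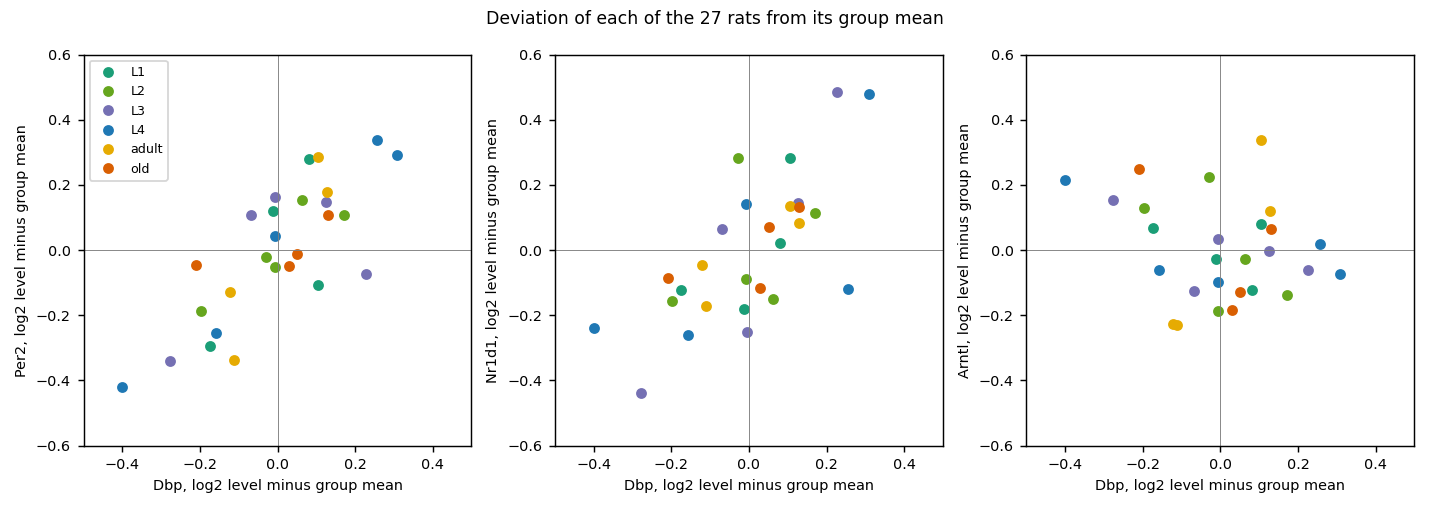
Deviation of each of the 27 rats from its group mean on the log2 scale, for Dbp (horizontal axis) against Per2, Nr1d1 and Arntl (vertical axes), coloured by group. Rats above their group for Dbp tended to be above it for Per2 (r = 0.79) and Nr1d1 (r = 0.69), with less of a relation for Arntl (r = −0.24).

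Of 27 further genes of the clock pathway, 22 had a probe and 19 were expressed in common. Newborn rats had 5 of these 19 higher and 7 lower than adult rats, and 5 higher and 8 lower than old rats, while adult rats had 4 higher and 4 lower than old rats. Over all probes 65.9%, 59.5% and 47.0% were called, so these shares lay near the background. The median changes of the 19 were −0.22, −0.19 and −0.04. At a fold of at least 2 the calls were 3, 3 and 1 genes, against 23.0%, 18.5% and 12.4% of all probes. *Hlf*, which encodes a factor of the same family as DBP, had a newborn minus old difference of −1.31 (adjusted p = 1.1e-08). On its brighter probe *Bhlhe41*, whose product represses transcription from E-boxes, had a newborn minus old difference of −1.71 (adjusted p = 3.15e-13). Adult minus old was −1.12 on that probe (adjusted p = 1.03e-07), and both had the direction seen in *Dbp*. The other *Bhlhe41* probe was above background on 27 arrays and was not expressed in common. Its means were −2.20, −2.06, −2.29 and −2.33 in L1 to L4, −0.25 in adult and −0.15 in old rats. *Tef*, the remaining member of the DBP family, did not reach a fold of 2, at −0.74 for newborn minus old and −0.90 for adult minus old. Its highest litter mean was in L2, 2.76, as for *Dbp*.

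*Nampt*, an enzyme of NAD synthesis under clock control, had newborn levels that differed by −1.26 from adult (adjusted p = 5.87e-09) and by −1.29 from old rats (adjusted p = 5.67e-09). *Sirt1*, an enzyme that uses NAD, had a newborn minus adult difference of −1.57 (adjusted p = 3.28e-09). *Wee1*, a cell cycle kinase with E-boxes known from its promoter, had a newborn minus adult difference of 1.07 (adjusted p = 3.96e-09) on its brightest probe, while its 2 other probes gave −0.43 and −0.90, so its direction is uncertain. *Rora* and *Rorb*, which activate *Arntl*, were above background on 0 and 1 of 35 arrays.

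Other genes that respond to hormones or handling were measured beside the clock. Of 7 glucocorticoid responsive genes expressed in common, 2 were higher and 3 lower in newborn than in adult rats, 2 higher and 4 lower than in old rats, and 2 were higher and 2 lower in adult than in old rats, where 65.9%, 59.5% and 47.0% of all probes were called. *Fkbp5*, a strongly induced target of the glucocorticoid receptor, had means of 4.03, 5.12, 4.97 and 4.72 in L1 to L4, 5.75 in adult and 4.74 in old rats, and *Tsc22d3*, another target, 5.71, 6.55, 6.52, 6.43, 6.24 and 5.58. On their brightest probes both were lowest in L1 among the litters and higher in adult than in old rats, by 1.01 (adjusted p = 3.37e-07) and 0.66 (adjusted p = 7.77e-06). A second *Fkbp5* probe had the opposite order of ages, at 4.24 in adult and 4.61 in old rats. The remaining *Fkbp5* probe had the order of the first, at 2.59 and 2.22 (adjusted p = 0.00542). The second *Tsc22d3* probe had its lowest litter mean in L4, 1.53, against 1.68 in L1. Its adult minus old difference of 0.21 was not called (adjusted p = 0.101). Among 10 immediate early genes, the newborn rats had 3 higher and none lower than the adult rats, 2 were higher and 3 lower than in old rats, and 1 was higher and 4 lower in adult than in old rats, against the same shares of all probes. For adult minus old, *Fos* gave −1.09 (adjusted p = 0.00383) and *Egr1* 1.23 (adjusted p = 0.000774). The part of these responses in the levels of *Per1* and the other clock genes was not tested.

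Markers of the makeup of the tissue also differed between the age groups, and in RNA of a whole tissue fewer cells of a type and less RNA per cell cannot be told apart. The summed level of mature neuron markers (5 of 6 had a probe, all 5 expressed in common) was 9.94 to 11.0 in newborn, 11.8 to 12.1 in adult and 12.7 to 13.0 in old rats. That of 4 sustentacular markers was 9.53 to 10.9, 11.3 to 11.5 and 11.8 to 12.1, and that of basal and dividing cells (5 of 7 with a probe, 4 in common) 6.12 to 6.95, 4.48 to 4.81 and 3.74 to 4.05. In these sums the first 2 lists had the same order of ages as the means of *Nr1d1* and *Dbp*. The brightest markers weigh most in a sum. Between adult and old rats, 2 of 5 mature neuron and 2 of 4 sustentacular markers were called, all higher in old rats. Over all probes 47.0% were called there. *Ugt2a1*, a sustentacular marker, had the higher mean in adult rats, by 0.17 (adjusted p = 0.629). Cartilage and bone markers (3 of 4 with a probe, 2 in common) were at 7.86 to 9.36 in newborn, 7.74 to 9.04 in adult and 4.16 to 4.77 in old rats. This sum was lowest in old rats, where *Dbp*, *Nr1d1* and *Per1* were higher than in adult rats. Its 2 members in common differed. Newborn minus adult was 4.73 for *Col2a1* (adjusted p = 7.24e-14) and −0.23 for *Ibsp* (adjusted p = 0.256). Adult minus old was 0.35 for *Col2a1* (adjusted p = 0.391) and 4.06 for *Ibsp* (adjusted p = 4.4e-12). The 3 red cell markers were at 8.13 to 10.2, 5.68 to 6.68 and 7.3 to 8.5, lowest in adult rats as *Per1* was. Medians of the ciliated respiratory sum (3 markers) were 8.95, 8.54 and 9.18 in newborn, adult and old rats. Those of the macrophage sum (3 markers, 2 in common) were 6.13, 5.52 and 5.79. Both were also lowest in adult rats, with pups and adult rats overlapping. The sum of 4 immature neuron markers was lowest in old rats, with medians of 10.4, 9.46 and 9.23. Skeletal muscle markers (2 of 3 with a probe, none in common) were at 1.86 to 7.23, −3.87 to −0.75 and −4.14 to −1.81. Among litters, 3 macrophage markers summed to 5.55 to 5.91, 6.36 to 6.53, 5.72 to 6.17 and 5.91 to 6.52 in L1 to L4. In the same order 5 mature neuron markers summed to 9.94 to 10.9, 10.0 to 10.8, 10.1 to 11.0 and 10.2 to 10.9. The part of cell makeup in the clock genes was not tested.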

How the data were processed

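RNA of the olfactory epithelium of 27 rats was hybridised to 35 arrays, each with 1 dye. For each array the authors deposited the scanner table of Feature Extraction (9.5.1.1 for adult arrays, 9.5.3.1 for the rest), whose spot intensity has its background subtracted but no scaling across arrays, with quality flags for each spot. They also deposited a GeneSpring matrix in which each intensity is a ratio to its array's median and its probe's median; 99.8% of its probes kept 1 constant factor to the scanner values, and it was used as an alternative.

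Control spots and 4189 outlier spot values were left out, spots of a probe were averaged, signals were scaled to the median of the array, raised to at least 0.01 and taken to log2. A probe was above background where at least 0.5 of its spots were flagged significant, clear of the background, not saturated and uniform, and expressed in a litter with 3 such arrays or in adult or old rats with 6 of 8. Levels of the 23668 probes expressed in common were fitted in 6 groups (R 4.3.3, limma 3.58.1, lmFit and eBayes), newborn being the mean of the 4 litters, and adjusted p followed Benjamini and Hochberg. The brightest probe stood for a gene. The fit was checked on simulated data. Alternatives were another scaling, background correction, probe filter, probe choice, the deposited matrix, random blocks, the methods' t-test, litter means, subsets of litters (1 of them, L2 to L4, added after seeing the data) and each rat left out (for the spread within litters, also added then). All members are named, with pathway genes called at a fold of at least 2, Fkbp5, Tsc22d3, Fos, Egr1, the tissue markers and the 3 probes most and least like Dbp and Arntl (Tef, Rora and Rorb were added after their values were seen). The members and gene lists were chosen with earlier results of these data known. A rat is the replicate, pups of a litter share a mother, and the number of arrays limits the precision. Probe coordinates are in build rn3, as the files give them; promoter windows are from RefSeq (GRCr8).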

Additional observations from a re-analysis of the deposited data

Results flagged for a closer look

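Of 67 sets of a probe in a litter, in adult or in old rats, 2 held a rat far from the rest, where chance gives about 1 in 20. Npas2 in L4 was 0.37 in rat 35 and −1.76 to −1.40 in the other 4 pups. The second Per3 probe in L3 was −0.15 in rat 30 and −2.37 to −1.87 in the others, while the brightest Per3 probe gave 0.39 in that pup, the lowest of its litter.

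For 4 genes the litters lay on both sides of an older group, and the difference among litters passed the F test. Per1 minus the old rats was −0.38 in L4 and 0.33 in L3. Per3 was −0.32 in L3 and 0.43 in L2 against adult rats, and −0.54 and 0.21 against old rats. Arntl was −0.69 in L2 and 0.08 in L4 against adult rats, and −0.72 and 0.06 against old rats. Dbp minus the adult rats was −0.64 in L1 and 0.21 in L2. The cause of these differences was not tested.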

How the results depend on the processing

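Of the counts of calls, these moved by over 1.5 times. With normexp background correction and quantile normalization, 8 clock genes were called for newborn against adult and 6 for adult against old rats, and at a fold of at least 2 the counts were 0, 2 and 0 in the 3 comparisons, with 1 further pathway gene for newborn against adult. Of all 23668 probes this setting called 15605 and 10828, against 15594 and 11115 in the fit as reported. At a fold of at least 2 it called 2805, 2442 and 897 probes, against 5435, 4374 and 2937. Quantile normalization alone called 8 for newborn against adult and 0 at a fold of at least 2 for adult against old, with 2 further pathway genes there. Over all probes it called 15827 and, at that fold, 2447 in these comparisons. Scaling to the 75th percentile gave 4 at a fold of at least 2 for newborn against adult, and 2 further pathway genes for adult against old. Over all probes the calls at that fold were 5334 and 2740 there. Probes above background on all 35 arrays left 3 called for newborn against adult, and 0 and 2 at a fold of at least 2 against adult and old. This filter takes *Npas2* and *Nr1d2*, above background on 34 and 33 arrays, out of the test, so their calls were not tested again. Of the 21519 probes kept, 14450 were called for newborn against adult, and 4784 and 3808 at that fold against adult and old. For the further pathway genes, adult against old had 5 calls with scan day as a random block and 5 by the methods' t-test, and L1 against the old rats of its scan day had 5 at a fold of at least 2. The matching calls over all probes were 7886, 9667 and 4349. Leaving out 1 rat kept the counts of clock genes called at 5, at 5 to 6 and at 3, and gave 1 to 2 further pathway genes at a fold of at least 2 for adult against old (2 without adult rat 13 or 14 or old rat 19 or 20).

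Signs turned only for differences that were not called in the fit as reported. For newborn minus adult, Per3 became 0.0066 as the mean over its probes and 0.023 with normexp, its second probe −0.044 at the 75th percentile, and Cry1 0.021 from L2 to L4. For newborn minus old, L1 within its scan day gave 0.0061 for Arntl, −0.32 for Cry1 and −0.28 for the second Per3 probe, and the 75th percentile −0.0078 for Cry1. For adult minus old, Arntl became 0.063 at the 75th percentile, 0.095 with normexp and 0.12 with quantile normalization, and the second Per3 probe −2.78e-05 with normexp. With 1 rat left out, the ranges were −0.14 to 0.0054 for Per3 and −0.019 to 0.12 for its second probe (newborn minus adult), −0.0039 to 0.17 for that probe and −0.042 to 0.083 for Cry1 (newborn minus old), and −0.082 to 0.13 for Per2, −0.059 to 0.088 for the second Per3 probe and −0.14 to 0.057 for Arntl (adult minus old). The cause was not tested. No paired analysis was possible because the groups share no rat numbers. Faint probes (Clock, Npas2, Nr1d2 and the second Per3 probe) lie close to background, which limits their differences, and normexp with its offset shrinks them by construction.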
